A study of Mus musculus with 9 samples.

Results

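The genes described here build or mark the contacts between neighbouring endothelial cells (ECs) and the barrier that those contacts form in a vessel wall. They were 10 genes given by symbol, namely Cdh5, Jup, Cldn5, Ocln, Tjp1, Esam, Jam2, F11r, Pecam1 and Emcn, of 18193 genes measured. Each was taken from the probe set, the group of short probes that reports 1 transcript, with the highest mean over the 9 arrays, and all 10 genes were found.

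ECs were sorted from the lungs of female NSG mice, an immunodeficient strain lacking T, B and NK cells, and their RNA was hybridised to 9 Affymetrix 3-prime expression arrays, with 3 arrays in each of 3 groups. The healthy IgG group came from NSG mice without tumour cells, matched for age and given a control rat IgG. The metastatic IgG group came from NSG mice whose veins had been injected with MDA-MB-231-LM2, a human breast cancer line selected for growth in the lung, at 6 to 8 weeks of age, and that were given control IgG on days 21 and 24 after the injection. The metastatic DC101 group received the same cells and then DC101, an antibody that blocks mouse VEGFR2, at 40 mg per kg on the same days, and lungs of both metastatic groups were taken on day 25, a stage the labels give as 3 weeks. The sort took CD31-positive cells and left out cells carrying CD45, CD11b, EpCAM, CD140a, CD140b or the cancer cells' GFP, so ECs from whole lungs were pooled whether or not a vessel touched a metastasis. All 3 groups shared the strain and an injected antibody, and NSG lungs lack the lymphocytes that a full immune system would place at the vessel wall. The labels call the samples biological replicates without saying that each came from its own mouse, so p-values measure the spread between samples only, and 3 arrays a group limited the precision.

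Endothelial junctions are assembled from adherens junctions, in which VE-cadherin binds its counterpart on the next cell and is tied to the cytoskeleton by catenins, and from tight junctions, in which claudins, occludin and junctional adhesion molecules are held by zonula occludens scaffolds. Together with PECAM-1 and the sialomucins of the cell surface they set how readily fluid, leukocytes and tumour cells cross the vessel wall. VEGF acting through VEGFR2 is known to loosen these contacts.

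All values below are on the log2 scale of robust multiarray averaging (RMA), a difference of 1 being a doubling of signal, and adjusted p-values come from limma with Benjamini-Hochberg adjustment over all 18193 genes. Arrays of 1 group correlated at 0.983 to 0.991 over genes, and the median SD of a gene was 0.14 in healthy IgG, 0.14 in metastatic IgG and 0.17 in metastatic DC101. The 3 comparisons share groups with each other, so they are not independent of one another. For the Gapdh control, signal at the 3-prime end minus signal at the 5-prime end ran from 0.69 to 0.77 in healthy IgG, 0.47 to 0.57 in metastatic IgG and 0.35 to 0.60 in metastatic DC101, so it moved with the presence of metastases. For the Actb control the same measure ran from -0.11 to 0.09, from 0.01 to 0.09 and from 0.004 to 0.14 in that order, and the groups overlapped. The part of the Gapdh difference in the results was not tested.

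The sorted cells carried transcripts of pan-endothelial markers. Of 15 pan-endothelial markers outside the 10 genes, 0 were called in any of the 3 comparisons by limma, and the log2 of their summed level lay between 17.35 and 17.51 on all 9 arrays, with each of the 6 metastatic arrays at or under 17.44 and each healthy array at or above 17.48. Between metastatic and healthy IgG, 9 of the 15 changed downward and 6 upward, from -0.36 for Tek (adjusted p = 0.0714) to 0.14 for Sox17 (adjusted p = 0.440). Kdr, which encodes VEGFR2, read 13.87, 13.75 and 13.78 in healthy IgG, 13.71, 13.76 and 13.81 in metastatic IgG and 13.43, 13.62 and 13.92 in metastatic DC101. The defining markers of the cells removed by the sort were not at 0, as no value in the table was under 5.40, and an array gives no level at which a transcript is absent. Epcam lay between 7.10 and 7.48 on all arrays. Group means in the order healthy IgG, metastatic IgG and metastatic DC101 were 9.01, 8.33 and 8.25 for Ptprc (CD45), 6.98, 6.87 and 6.62 for Itgam (CD11b), 10.25, 9.68 and 9.76 for Pdgfra (CD140a) and 8.82, 8.70 and 8.86 for Pdgfrb (CD140b).

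Markers of other cells did differ between the groups. In metastatic IgG against healthy IgG, 2.60% of all genes were called lower and 3.93% higher. There 6 of 15 lung epithelial markers were called lower, namely Ager, Cdh1, Cldn18, Sftpa1, Sftpc and Sftpd, and 0 higher. Of the 15, 11 changed downward and 4 upward, the latter being Krt8 (0.70, adjusted p = 0.0682 in limma), Krt18 (0.55), Scgb1a1 (0.79) and Cldn4 (0.04). The log2 of the list's summed level ran from 13.97 to 14.53 in healthy IgG, from 13.004 to 13.31 in metastatic IgG and from 13.16 to 14.34 in metastatic DC101. Of 8 platelet markers 4 were lower (Pf4, Ppbp, Treml1 and Tubb1), with sums of 12.02 to 12.23, 10.98 to 11.16 and 11.20 to 11.50. Of 6 lymphatic endothelial markers 3 were higher (Mmrn1, Prox1 and Reln), with sums of 14.29 to 14.43, 14.53 to 14.65 and 14.43 to 14.82, and Prox1 encodes the transcription factor that specifies lymphatic ECs. Among 12 leukocyte markers C1qa and C1qb were higher, among 10 fibroblast and mural markers Col1a1 and Col1a2 were higher and Dcn was lower, of 8 cardiac muscle markers Actc1 was lower, and of 6 mesothelial markers 0 were called. In metastatic DC101 against healthy IgG, Pf4, Ppbp, Tubb1 and Actc1 were lower, Col1a1, Col1a2 and Wt1 were higher, and 0 of the epithelial, leukocyte and lymphatic markers were called. None of these markers was called between metastatic DC101 and metastatic IgG. Several of the 10 genes are also made by such cells, Ocln, Tjp1, F11r and Jup by epithelium, and F11r, Esam and Pecam1 by platelets. In sorted bulk RNA, fewer cells of a type and less RNA per cell cannot be told apart, and the part of these cells in the results was not tested.

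**Figure D1:**
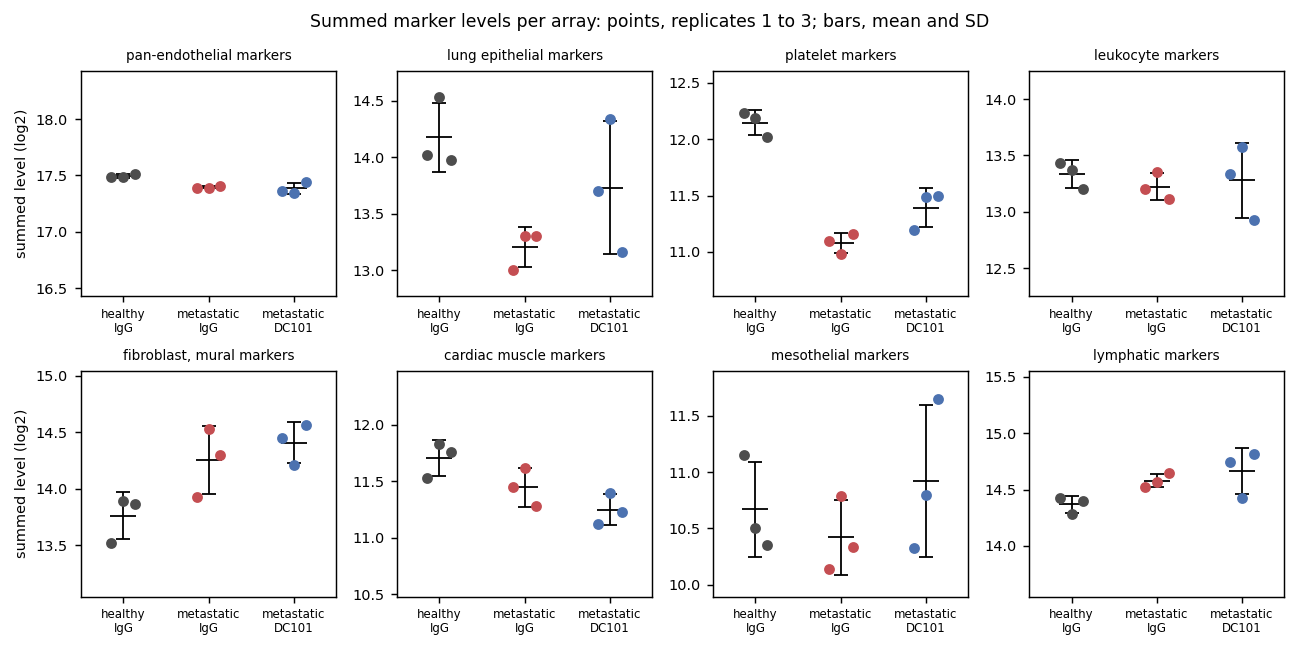
The plot gives the log2 of the summed linear level (y axis, RMA log2 units) of each marker list on each array, with 1 point an array, the 3 groups side by side, and bars that show group mean and SD. The pan-endothelial sums lie within 17.35 to 17.51 in all groups, whereas the epithelial and platelet sums of metastatic IgG lie below those of healthy IgG.

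In lungs with metastases, single junction genes moved in opposite directions. Between metastatic IgG and healthy IgG, 2 of the 10 genes passed the test, Emcn higher by 0.53 and Jup lower by 0.50, beside 6.53% of all genes. All 10 were among the 9097 brighter genes, where calls were more frequent. When those genes alone were fitted, 1343 of the 9097 were called, and 3 of the 10. At an unadjusted p under 0.05 there were 5 of the 10, beside 21.3% of all genes. For 7 of the 10 no array of the first group reached into the range of the second, beside 27.6% of all genes, with Tjp1, Jam2, F11r and Emcn above (13.0% of all genes) and Cldn5, Ocln and Jup below (14.7% of all genes). The median change over the 10 was 0.02 and that over all genes was -0.02, and the median size of change without regard to sign was 0.23 beside 0.15.

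After DC101, no junction gene passed the test. Between metastatic DC101 and metastatic IgG, 0 of the 10 passed limma's test, and 0 had an unadjusted p under 0.05, beside 0% and 6.65% of all genes. The arrays did not overlap for 5 of the 10, beside 12.4% of all genes, with Ocln and Esam above (5.40% of all genes) and Cldn5, Jup and Emcn below (6.95% of all genes). The median change was 0.003 (all genes, -0.02) and the median size of change was 0.08 (all genes, 0.12). Against healthy IgG, metastatic DC101 had 1 of the 10 called, Jup, which was lower, beside 2.42% of all genes called and 0.835% called lower. At an unadjusted p under 0.05 there were 2, Jup and Cldn5, beside 17.0% of all genes. For 4 the arrays did not overlap, beside 23.1% of all genes, Tjp1 and Esam above (9.44% of all genes) and Cldn5 and Jup below (13.6% of all genes).

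**Figure D2:**
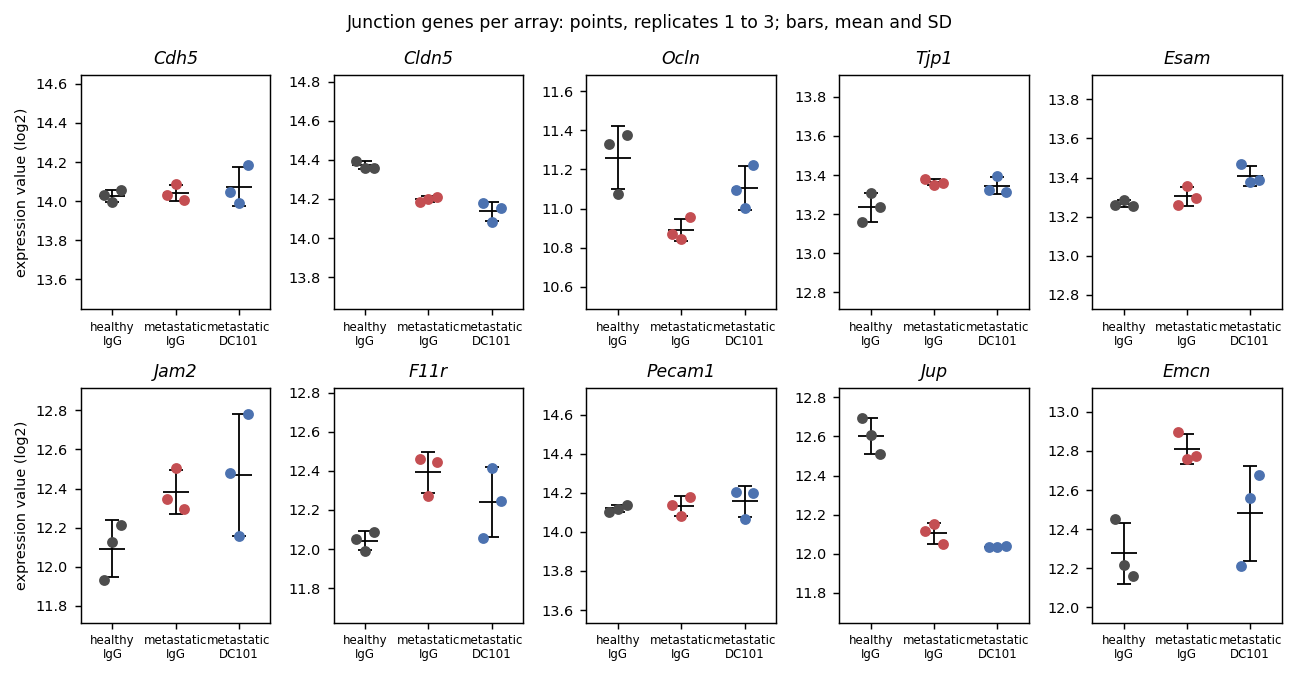
RMA log2 value (y axis) of each of the 10 junction genes on all 9 arrays, 1 point an array, with the mean and SD of each group of 3 arrays drawn beside the points. The metastatic IgG points of Emcn lie above and those of Jup below the healthy IgG points, while those of Cdh5 and Pecam1 lie among them.

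The promoters of the called genes and of Cldn5 differ in base composition, and they are shown because they are the stretch of regulatory sequence next to the start of each gene whose levels are compared here. RefSeq promoter sequences (GRCm38.p6) were matched for 6 of the 10 genes. Each run below is the 250 bases before the annotated start, on the gene's strand, at chr3:137340828-137341077 on the plus strand for Emcn, chr11:100397791-100398040 on the minus strand for Jup and chr16:18776597-18776846 on the plus strand for Cldn5. Capitals mark GGAA or its reverse complement TTCC, the core bound by ETS factors such as the endothelial regulator ERG, and GGGCGG or its reverse complement CCGCCC, the GC box bound by Sp factors.
Emcn: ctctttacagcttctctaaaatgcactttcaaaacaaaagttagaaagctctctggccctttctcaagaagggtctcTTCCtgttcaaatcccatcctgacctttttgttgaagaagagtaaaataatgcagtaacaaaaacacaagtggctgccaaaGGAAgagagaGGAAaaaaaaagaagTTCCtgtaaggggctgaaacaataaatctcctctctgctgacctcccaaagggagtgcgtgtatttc
Jup: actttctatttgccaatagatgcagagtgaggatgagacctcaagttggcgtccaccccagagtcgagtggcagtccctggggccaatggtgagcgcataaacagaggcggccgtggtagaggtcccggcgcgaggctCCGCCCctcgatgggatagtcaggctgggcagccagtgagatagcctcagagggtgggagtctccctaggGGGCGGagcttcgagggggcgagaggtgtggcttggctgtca
Cldn5: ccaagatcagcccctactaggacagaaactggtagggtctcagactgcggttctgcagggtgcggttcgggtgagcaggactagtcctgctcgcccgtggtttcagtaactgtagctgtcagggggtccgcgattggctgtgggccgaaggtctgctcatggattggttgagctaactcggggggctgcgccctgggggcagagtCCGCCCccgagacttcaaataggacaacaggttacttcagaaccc
The Emcn promoter was 40.8% G or C and held 1 CpG, against medians of 52.4% and 6 over 32851 promoters of the same length, and 7.9% of those promoters had fewer. It held 4 GGAA cores and 0 GC boxes, and of the 3 promoters shown it had the fewest CpG. The Jup promoter was 62.0% G or C with 13 CpG, 0 GGAA cores and 2 GC boxes, and that of Cldn5 was 59.6% G or C with 12 CpG, 0 GGAA cores and 1 GC box. Of all promoters 93.4% held at least 1 GGAA core and 32.7% held a GC box. These are counts of letters in a short window, and nothing was read from them about binding.

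The adherens junction was read through its cadherin and 1 of its catenins. Cdh5 encodes VE-cadherin, the adhesion receptor that ECs do not share with epithelium. It read 14.03, 13.996 and 14.06 in healthy IgG, 14.03, 14.09 and 14.004 in metastatic IgG and 14.05, 13.99 and 14.18 in metastatic DC101. All 3 groups overlapped. The difference between metastatic IgG and healthy IgG was 0.01 (95% interval -0.18 to 0.21, adjusted p = 0.951), and that between metastatic DC101 and metastatic IgG was 0.03 (95% interval -0.21 to 0.28, adjusted p = 0.967). These values lie near the top of the array's range, where the highest was 14.84. A less bright second probe set gave Cdh5 a change of 0.06 (95% interval -0.16 to 0.29, adjusted p = 0.767 in limma over 34945 probe sets) in the IgG comparison.

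Jup encodes plakoglobin, a catenin that binds the tail of VE-cadherin and also sits in the desmosomes of epithelium and heart muscle. It read 12.69, 12.61 and 12.51 in healthy IgG, 12.12, 12.15 and 12.05 in metastatic IgG and 12.04, 12.03 and 12.04 in metastatic DC101. Every array from a lung with metastases lay below every healthy array, and the lowest of the metastatic arrays were those of the DC101 group. The means were 12.60 ± 0.09, 12.11 ± 0.05 and 12.04 ± 0.002 (SD, n = 3 each). Jup fell by 0.50 (SE 0.09) between healthy and metastatic IgG, a 1.41-fold lower signal, with an adjusted p of 0.0233. It was 1.48-fold lower in metastatic DC101 than in healthy IgG (log2 change -0.57, SE 0.10, adjusted p = 0.0352). Between the metastatic groups the difference was -0.07 (95% interval -0.29 to 0.16, adjusted p = 0.907).

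The calls for Jup stood close to the threshold. In the IgG comparison the adjusted p was 0.0429 without healthy IgG replicate 3, while leaving out any other single array ended the call with values between 0.0600 and 0.0793. The change itself stayed between -0.55 and -0.45. The call in metastatic DC101 against healthy IgG ended in each of the 6 fits that left out an array (adjusted p 0.0741 to 0.137). With a plain linear model that borrowed no variance from other genes, the adjusted p of the IgG comparison was 0.0538. The only probe set for Jup is of a type that its design name marks as able to match related transcripts. Epithelial and platelet marker sums were also lower on every metastatic IgG array than on every healthy one, as given above. In metastatic DC101 the platelet sums again lay below the healthy ones, while the epithelial sums (13.16 to 14.34) overlapped those of healthy IgG (13.97 to 14.53). The cardiac sums of metastatic IgG (11.28 to 11.62) overlapped those of healthy IgG (11.53 to 11.83), and those of metastatic DC101 (11.12 to 11.395) lay below them. Actc1 was called lower in both comparisons with healthy IgG, as given above. The part of these cells in the Jup result was not tested.

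The tight junction was read through a claudin, occludin and a scaffold. Cldn5 encodes claudin-5, the main claudin of endothelium. It read 14.40, 14.36 and 14.36 in healthy IgG, 14.18, 14.20 and 14.21 in metastatic IgG and 14.18, 14.08 and 14.15 in metastatic DC101. The 3 groups formed a descending order, with 14.177 as the highest DC101 array just under 14.182 as the lowest metastatic IgG array, and all of the arrays lay within a narrow band near the top of the array's range. The differences did not pass the test, at -0.17 between metastatic and healthy IgG (95% interval -0.36 to 0.01, adjusted p = 0.266), -0.06 between metastatic DC101 and metastatic IgG (95% interval -0.28 to 0.16, adjusted p = 0.915) and -0.23 between metastatic DC101 and healthy IgG (95% interval -0.46 to -0.01, adjusted p = 0.272). In the plain linear model without borrowed variance, the adjusted p of the IgG comparison was 0.0325.

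Ocln encodes occludin, a membrane protein of tight junctions that is abundant in epithelium too. It read 11.33, 11.08 and 11.38 in healthy IgG, 10.87, 10.84 and 10.96 in metastatic IgG and 11.09, 11.001 and 11.22 in metastatic DC101. The metastatic IgG arrays lay below all of the other 6, and the DC101 arrays overlapped the healthy ones. The change between metastatic and healthy IgG was -0.37 (SE 0.11, 95% interval -0.63 to -0.11, adjusted p = 0.101), and that between metastatic DC101 and metastatic IgG was 0.21 (95% interval -0.04 to 0.47, adjusted p = 0.761). The epithelial marker sums stood in the same order of groups, and within healthy IgG the highest of them was replicate 2, at 14.53, which had the lowest Ocln. On that array the epithelial marker Scgb1a1 read 12.16, against 8.27 and 8.25 on the other healthy arrays. The part of epithelial transcripts in the Ocln values was not tested.

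A second probe set gave Ocln a larger difference. It read 11.15, 11.16 and 11.36 in healthy IgG, 10.46, 10.63 and 10.62 in metastatic IgG and 10.68, 10.80 and 10.60 in metastatic DC101. Here both metastatic groups lay below the healthy arrays. The change in the IgG comparison was -0.65 (SE 0.11, adjusted p = 0.0232 in limma over 34945 probe sets), and the call ended in each of 6 fits that left out an array (adjusted p 0.0584 to 0.0753). Metastatic DC101 differed from metastatic IgG by 0.12 on it (adjusted p = 0.885) and from healthy IgG by -0.53 (adjusted p = 0.107). When the probe sets of a gene were averaged, Ocln was lower by 0.51 with an adjusted p of 0.0233, again in the IgG comparison.

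Tjp1 encodes ZO-1, the scaffold that ties tight junction proteins to actin. It read 13.16, 13.31 and 13.24 in healthy IgG, 13.38, 13.35 and 13.36 in metastatic IgG and 13.32, 13.40 and 13.31 in metastatic DC101. The metastatic arrays lay just above the healthy ones and the metastatic groups overlapped each other. The changes were 0.13 in the IgG comparison (95% interval -0.07 to 0.33, adjusted p = 0.446) and -0.02 between the metastatic groups (95% interval -0.24 to 0.21, adjusted p = 0.979).

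F11r, Jam2 and Esam encode immunoglobulin-like adhesion proteins of the junction. F11r encodes JAM-A, which is also found on leukocytes and platelets. It read 12.05, 11.99 and 12.09 in healthy IgG, 12.46, 12.27 and 12.44 in metastatic IgG and 12.06, 12.41 and 12.25 in metastatic DC101. The metastatic IgG arrays lay above the healthy ones, and the DC101 arrays spread over both ranges. The change in the IgG comparison was 0.35 (SE 0.09, 95% interval 0.13 to 0.57, adjusted p = 0.0788), a 1.27-fold difference, and of the 13 alternatives run it passed the test in 1, where the 9097 brighter genes alone were fitted (adjusted p = 0.0366). Between the metastatic groups it was -0.15 (95% interval -0.45 to 0.15, adjusted p = 0.837). Its dimmer second probe set gave 0.13 in the IgG comparison (adjusted p = 0.535).

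Jam2 encodes JAM-B, a partner of JAM-C on the next cell and a ligand for leukocyte integrins. It read 11.93, 12.13 and 12.22 in healthy IgG, 12.35, 12.51 and 12.29 in metastatic IgG and 12.48, 12.16 and 12.78 in metastatic DC101. The metastatic IgG arrays lay above the healthy ones, while the DC101 arrays had the widest spread of the 10 genes (SD 0.31, n = 3). The change in the IgG comparison was 0.29 (95% interval 0.03 to 0.55, adjusted p = 0.196). All 5 probe sets of Jam2 gave a value above 0 there, between 0.23 and 0.57, and none passed the test (adjusted p 0.0713 to 0.337).

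Esam encodes the endothelial cell-selective adhesion molecule, which is also carried by platelets. It read 13.26, 13.29 and 13.25 in healthy IgG, 13.26, 13.36 and 13.30 in metastatic IgG and 13.47, 13.38 and 13.39 in metastatic DC101. The IgG groups overlapped, and the DC101 arrays lay above both of them. The change between the metastatic groups was 0.11 (95% interval -0.12 to 0.34, adjusted p = 0.852), and that between metastatic DC101 and healthy IgG was 0.14 (adjusted p = 0.502).

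**Figure D3:**
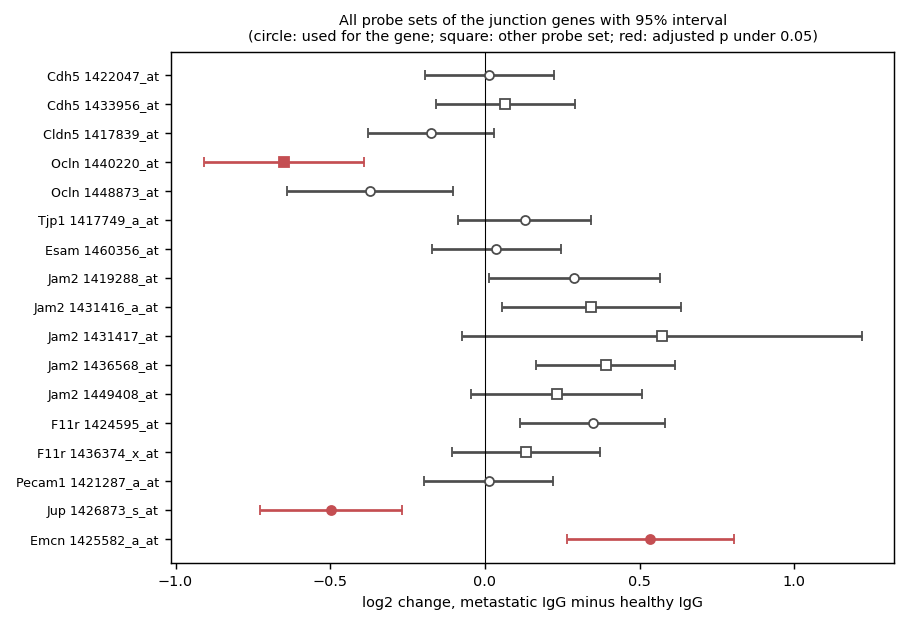
The plot gives the log2 change of metastatic IgG from healthy IgG (x axis) for each of the 17 probe sets of the 10 genes (y axis), with bars for 95% intervals from limma over 34945 probe sets, circles for the probe set used for the gene, squares for the others and red for adjusted p under 0.05. All 5 Jam2 probe sets lie above 0 and both Ocln probe sets lie below 0.

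Pecam1 and Emcn encode glycoproteins of the endothelial surface. Pecam1 encodes CD31, the marker by which the cells were sorted, so its levels describe the sort. It read 14.10, 14.12 and 14.14 in healthy IgG, 14.14, 14.08 and 14.18 in metastatic IgG and 14.21, 14.06 and 14.20 in metastatic DC101, and all groups overlapped.

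Emcn encodes endomucin, a sialomucin of capillary and venous endothelium that limits leukocyte adhesion and takes part in the uptake of VEGFR2 by ECs. It read 12.45, 12.21 and 12.16 in healthy IgG, 12.90, 12.76 and 12.77 in metastatic IgG and 12.21, 12.56 and 12.68 in metastatic DC101. Every metastatic IgG array lay above every other array, and the DC101 arrays ranged from within the healthy values to just under the metastatic IgG ones. The means were 12.28 ± 0.16, 12.81 ± 0.07 and 12.48 ± 0.24 (SD, n = 3 each). Emcn rose by 0.53 (SE 0.11) in metastatic IgG, a 1.45-fold higher signal, with an adjusted p of 0.0341. The difference between metastatic DC101 and metastatic IgG was -0.33 (SE 0.14, 95% interval -0.66 to 0.00, adjusted p = 0.741, unadjusted 0.0525), and that between metastatic DC101 and healthy IgG was 0.21 (95% interval -0.15 to 0.57, adjusted p = 0.558).

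The call for Emcn was kept without healthy IgG replicate 1 (adjusted p = 0.0376), and leaving out any other single array of the IgG comparison ended it, with values between 0.0808 and 0.107. The change ranged from 0.48 to 0.62 over these fits. Fitting all 9 arrays together gave an adjusted p of 0.0567, and the plain linear model without borrowed variance gave 0.0978. The lymphatic endothelial marker sums were also higher in metastatic IgG (14.53 to 14.65) than in healthy IgG (14.29 to 14.43). Of the 6 markers 5 changed upward there and 1, Lyve1, downward (-0.20). Lyve1 (group means 13.65 to 13.85) and Flt4 (12.15 to 12.69) were the brightest of the 6 and weighed most in these linear sums. Prox1 had group means of 7.41 to 9.72. In metastatic DC101 the sums were 14.74, 14.43 and 14.82 on replicates 1 to 3, where Emcn read 12.21, 12.56 and 12.68. The part of lymphatic transcripts in the Emcn result was not tested.

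**Figure D4:**
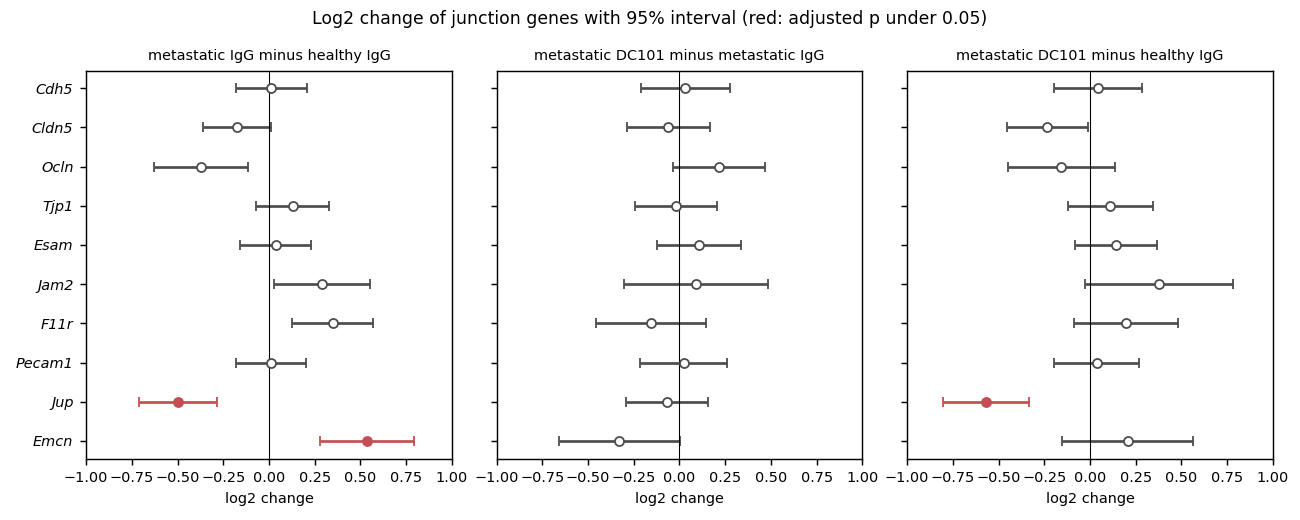
The plot gives the log2 change (x axis) of the 10 junction genes in each of the 3 comparisons, with points for the estimates, bars for 95% intervals from limma and red for adjusted p under 0.05. Emcn and Jup are red in metastatic IgG against healthy IgG, Jup in metastatic DC101 against healthy IgG, and none in metastatic DC101 against metastatic IgG.

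The genes whose levels ran most like those of the called members over the 9 arrays were listed by Pearson correlation, as a description in which the 9 arrays share the same 3 groups. For Jup they were Mettl7a1 (r = 0.989), Ccrl2, a chemokine-binding receptor (r = 0.986), and Ltbp4, which encodes a latent TGF-beta binding protein (r = 0.983). Like Jup they were lower in metastatic IgG than in healthy IgG, by log2 changes of -1.22, -0.69 and -0.59. For Emcn they were Arhgap18 (r = 0.972), Celsr1, a planar polarity cadherin (r = 0.971), and 1810073O08Rik (r = 0.963). Those were higher in the IgG comparison by 1.66, 1.32 and 1.53, and their differences between metastatic DC101 and metastatic IgG were -1.02, -0.65 and -0.73 (adjusted p 0.742 to 0.776).

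Beyond the 10 genes, 58 further junction and barrier genes in 4 lists were measured. The lists were chosen with earlier results of these data known, so their counts are a description and no excess over all genes can be read from them. In metastatic IgG against healthy IgG, 8 of them passed the test, 6 higher and 2 lower, beside the 3.93% of all genes that were higher and the 2.60% that were lower. Between metastatic DC101 and metastatic IgG limma called 0 of the 58. Against healthy IgG, metastatic DC101 had 4 called, all higher (Nectin2, Magi1, Cd34 and Gja1), beside the 1.58% of all genes called higher.

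Among 12 adherens junction partners, which include the catenins Ctnna1, Ctnnb1 and Ctnnd1 and the phosphatase Ptprb, 1 passed the test in the IgG comparison and the median change was 0.07. It was Nectin2, an immunoglobulin-like adhesion protein of adherens junctions. Nectin2 read 10.29, 10.31 and 10.11 in healthy IgG, 11.35, 11.17 and 11.02 in metastatic IgG and 10.76, 11.27 and 11.14 in metastatic DC101. Both metastatic groups lay above the healthy arrays. It rose by 0.94 (SE 0.12, adjusted p = 0.00584), 1.93-fold, and averaging its probe sets gave 0.57 (adjusted p = 0.0261).

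Among 14 tight junction claudins and adaptors the median change was -0.03 and 2 genes rose in metastatic IgG, namely Magi1 and Jam3. Magi1 encodes a scaffold of endothelial and epithelial junctions. It read 10.57, 10.16 and 10.19 in healthy IgG, 11.43, 11.42 and 11.27 in metastatic IgG and 11.26, 11.10 and 11.02 in metastatic DC101. The metastatic IgG arrays were the highest and the DC101 arrays lay between them and the healthy ones. Magi1 was 2.10-fold higher in metastatic than in healthy IgG (log2 change 1.07, SE 0.13, adjusted p = 0.00582), or 0.67 higher when its probe sets were averaged (adjusted p = 0.0295). Its difference between the metastatic groups was -0.25 (adjusted p = 0.745).

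Jam3 encodes JAM-C, the partner of JAM-B. It read 9.17, 9.37 and 9.38 in healthy IgG, 9.81, 10.003 and 9.76 in metastatic IgG and 9.18, 9.61 and 10.05 in metastatic DC101, the last group spanning both others. The change in the IgG comparison was 0.55 (SE 0.11, adjusted p = 0.0297). That call ended in each of the 6 fits without 1 array (adjusted p 0.0614 to 0.0934), and the averaged probe sets gave 0.28 (adjusted p = 0.421).

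The 12 contact and surface glycoproteins held 4 called genes in the IgG comparison, and their median change was -0.11. Gja1 and Gjc1 encode connexins, the channel proteins of gap junctions, and they moved in opposite directions. Gja1 read 10.94, 11.03 and 10.28 in healthy IgG, 12.44, 12.69 and 12.55 in metastatic IgG and 11.76, 12.24 and 11.96 in metastatic DC101. The 3 groups did not overlap and the DC101 arrays lay between the other two. Gja1 rose 3.51-fold in metastatic IgG (log2 change 1.81, SE 0.20, adjusted p = 0.00419) and was 2.36-fold higher in metastatic DC101 than in healthy IgG (adjusted p = 0.0370). The difference between the metastatic groups was -0.57 (adjusted p = 0.737).

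Gjc1 read 10.82, 10.81 and 10.60 in healthy IgG, 10.03, 9.99 and 9.78 in metastatic IgG and 10.28, 10.27 and 10.79 in metastatic DC101. The metastatic IgG arrays were the lowest. Gjc1 fell by 0.81 (SE 0.11, adjusted p = 0.00857), a 1.76-fold lower signal, and the difference of metastatic DC101 from metastatic IgG was 0.52 (adjusted p = 0.741). Without the probe sets whose type can match related transcripts the fall was not called, at -0.47 (adjusted p = 0.133).

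Cd34, a sialomucin of endothelium, read 13.09, 13.04 and 12.95 in healthy IgG, 13.69, 13.68 and 13.75 in metastatic IgG and 13.64, 13.70 and 13.69 in metastatic DC101. Both metastatic groups lay together above the healthy arrays. It rose 1.60-fold in metastatic IgG (log2 change 0.68, SE 0.09, adjusted p = 0.00635). Cd99, an adhesion protein that leukocytes use in crossing the endothelium, read 11.18, 10.96 and 11.17 in healthy IgG, 10.61, 10.64 and 10.59 in metastatic IgG and 10.58, 10.54 and 10.82 in metastatic DC101. It was 1.40-fold lower in metastatic IgG (log2 change -0.49, SE 0.10, adjusted p = 0.0310). The call was kept without healthy IgG replicate 2 (adjusted p = 0.0378) and ended without any other single array (0.0805 to 0.103), and a probe set specific to the transcript gave 0.14 (adjusted p = 0.578), so that the direction for Cd99 depended on the probe set.

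Among 20 junction regulators, which include the RAP1 GTPases, the CCM proteins and the kinases Src and Yes1, the median change was -0.03 and 1 gene was called. It was Tiam1, an exchange factor that activates the GTPase RAC1. Tiam1 read 9.03, 9.81 and 7.83 in healthy IgG, 11.42, 11.46 and 11.60 in metastatic IgG and 9.14, 11.13 and 10.50 in metastatic DC101. The healthy arrays spread widely and the DC101 arrays reached from their range almost to that of metastatic IgG. The change in the IgG comparison was 2.60 (SE 0.44, adjusted p = 0.0188), a 6.08-fold higher signal. The call was kept without healthy IgG replicate 2 or 3 (adjusted p = 0.00988 and 0.0103) and ended without any other single array (0.0575 to 0.0710), and averaging its probe sets gave a change of 1.02 (adjusted p = 0.0338).

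Leaving out each array in turn kept the calls for Nectin2, Magi1, Cd34, Gja1 and Gjc1 in all 6 fits of the IgG comparison. In metastatic DC101 against healthy IgG the calls for Nectin2, Magi1 and Cd34 were each kept in 1 of 6 such fits and that for Gja1 in 0, with adjusted p up to 0.131, 0.118, 0.0857 and 0.0999.

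**Figure D5:**
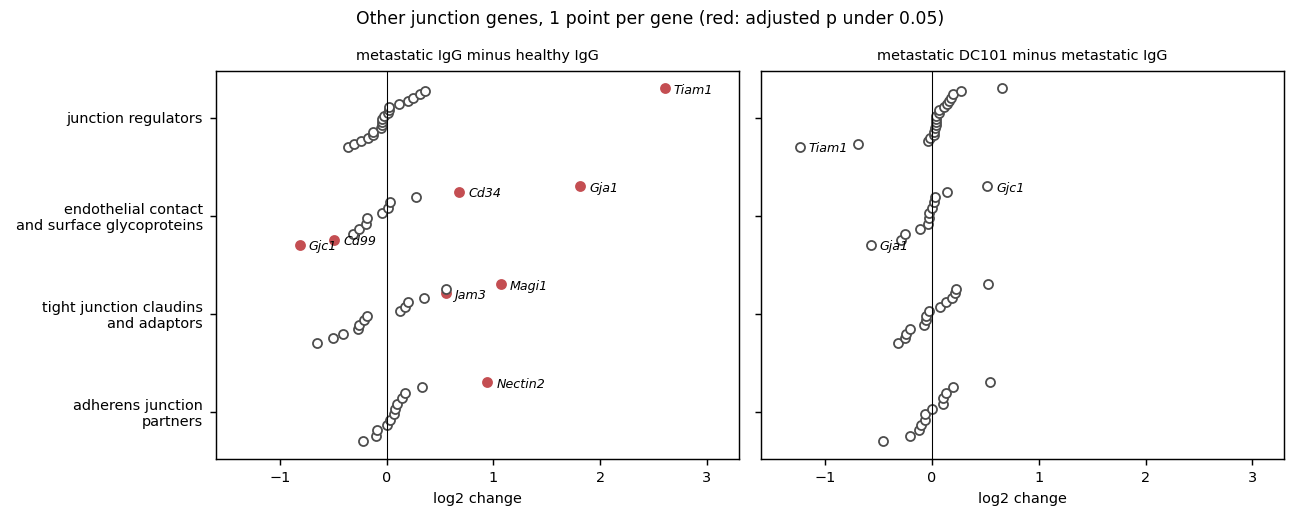
The plot gives the log2 change (x axis) of the 58 further junction and barrier genes, 1 point a gene, by list (y axis), for metastatic IgG minus healthy IgG on the left and metastatic DC101 minus metastatic IgG on the right, in red where the adjusted p was under 0.05. Tiam1 (2.60) and Gja1 (1.81) lie farthest to the right in the left panel, and no gene is red in the right panel.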

How the data were processed

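RNA of 9 sorted lung EC samples, 3 per group, was extracted, amplified by in vitro transcription from the 3-prime end, labelled and hybridised to Affymetrix mouse genome arrays. The deposited values are log2 expression per probe set, which the authors made from the raw array files by RMA in Chipster, an equalising of all arrays. The log base is not written in the table and was taken from RMA. Column medians were 8.32 to 8.33. The table lists 45101 probe sets. A single symbol was given for 34945, several symbols for 932, and 9160 are not named here. Each of 18193 genes was represented by its brightest probe set on average over all arrays.

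Each pair of groups was fitted on its 6 arrays with limma 3.58.1 in R 4.3.3 (lmFit and eBayes, two-sided), adjusted by Benjamini-Hochberg over all genes and called at an adjusted p under 0.05. The code was tested on simulated data. Alternatives were averaged probe sets, leaving out cross-hybridising types, all 9 arrays in 1 fit, a replicate block, bright genes only, array weights, no variance moderation and leaving out each array. Replicate numbers were not taken as pairs. All 10 genes and the called genes of 4 pathway lists are named with all values. The called genes of the marker lists, the defining markers of the sort and the 3 genes most like each called member are named, mostly without array values. The genes and lists were chosen with earlier results of these data known. Sequences came from RefSeq (GRCm38.p6).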

Additional observations from a re-analysis of the deposited data

How the results depend on the processing

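The 3 arrays a group limited precision, and the calls for Jup and Emcn were lost without single arrays. Of the 10 junction genes, 2 were called between metastatic and healthy IgG. The count was 3 with averaged probe sets and 3 with bright genes only. Over all genes tested, those settings called 1260 of 18193 and 1343 of 9097, against 1188 of 18193 in the main fit. The junction count was 1 of the 9 that could be tested without cross-hybridising types (Emcn, since the only probe set of Jup was left out by construction). It was 1 with all 9 arrays in 1 fit (Jup) and 1 without variance moderation (Cldn5, with Jup at an adjusted p of 0.0538 and Emcn at 0.0978). It was 2 with array weights, and 0 to 1 without 1 array. With the replicate block it was 0 (adjusted p 0.0656 for Jup and 0.0595 for Emcn), and the numbers share only a label, since same-numbered arrays correlated at -0.0543 to 0.0845 over 9 pairs and differently numbered ones at -0.14 to 0.0985 over 18. Between metastatic DC101 and healthy IgG the count stayed 1 (Jup) with averaged probe sets, all 9 arrays in 1 fit, bright genes only and array weights. Of all genes tested, these settings called 2.54%, 3.64%, 4.73% and 2.98% in that order. The count became 0 of 9 without cross-hybridising types, where Jup was not tested. It was 0 with the replicate block, 0 without variance moderation and 0 in each fit without 1 array. Between the metastatic groups 0 were called in each alternative run. Of the 58 other junction genes, 8 were called in the IgG comparison, and 1 without variance moderation and 5 to 8 without 1 array. In metastatic DC101 against healthy IgG 4 were called. The count was 2 with the replicate block, 0 without variance moderation, 0 to 1 without 1 array and 3 to 4 in the other alternatives. Over all genes, 1188 calls in the IgG comparison became 689 with the replicate block, 376 without variance moderation and 556 to 759 without 1 array, and 440 calls in metastatic DC101 against healthy IgG became 662 with all 9 arrays, 247 with the block, 14 without variance moderation and 110 to 361 without 1 array. The cause of these shifts was not tested.

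Signs turned for small changes and also for Cd99, which in the main fit was called in the IgG comparison at -0.49. Against healthy IgG after DC101, its main change was -0.46. Without 1 array the IgG comparison gave -0.0094 to 0.032 for Cdh5 and -0.010 to 0.038 for Pecam1, the metastatic groups gave -0.023 to 0.074 for Cdh5, -0.065 to 0.25 for Jam2, -0.0018 to 0.070 for Pecam1, -0.23 to 0.024 for Nectin2 and -0.054 to 0.087 for Cd99, and metastatic DC101 against healthy IgG gave -0.0099 to 0.087 for Cdh5. With averaged probe sets the metastatic groups gave -0.0044 for Cdh5, -0.012 for Jam2 and 0.080 for Nectin2. Without cross-hybridising types Cd99 gave 0.14 in the IgG comparison and 0.18 against healthy IgG after DC101. Of 729 further values under an alternative, 623 kept their direction and side of the threshold, 87 lost a call, 4 gained one and 15 turned sign.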
